A study of Mus musculus with 8 samples.

Results

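Collagen genes were measured in the epididymal white fat of male mice. A gene was counted as a member when its symbol reads Col, a number, a, a number and GENCODE lists it as protein-coding. This gave 44 genes of the 34866 in the deposited table, of which 21850 are protein-coding. By type they are 11 fibrillar genes, 6 basement membrane genes of type IV, 6 type VI genes and 21 genes of other types. The study set 4 libraries of Aromatase flox/flox mice, whose aromatase gene Cyp19a1 carries loxP sites, against 4 libraries of aP2-Cre;Aromatase flox/flox mice. In the second genotype Cre recombinase is driven by the promoter of Fabp4 (aP2), which is known to be active in adipocytes and also in some macrophages and endothelial cells. Mice with the Cre transgene alone were not analysed here, so transgene and deletion cannot be told apart. The labels give no age and do not state that each library came from a separate mouse, so p-values measure the spread between these libraries. Total RNA was profiled with a 3′-end method (BRB-seq), and the stated purpose was to find targets of Cyp19a1 that act on phosphorus metabolism.

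Collagens are secreted proteins whose alpha chains wind into helical trimers. Fibrillar types form the tension-bearing fibres around adipocytes, type IV forms the sheet-like network of the basement membrane that wraps each adipocyte and vessel, and type VI forms beaded filaments between them. In adipose tissue, fibroblasts and adipocyte precursors are known as main sources of fibrillar collagen, while endothelial cells and adipocytes make much basement membrane collagen. Collagen accumulation is known as a feature of fibrosis in expanding fat.

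Several collagen chains lie side by side in the genome. Col4a1 and Col4a2 stand head to head on chromosome 8 of GRCm38, and their first exons share 22 bases (chr8:11312805-11312826, plus strand). That stretch is shown because this pair followed each other most closely across libraries of the 8 pairs compared. The other head-to-head pairs named below were not among those 8. The capitals mark GGGCGG, a GC box.
Col4a1 and Col4a2 shared start: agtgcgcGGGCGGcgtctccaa
Col4a3 and Col4a4 are likewise head to head on chromosome 1, 71 bases apart, and Col4a5 and Col4a6 on chromosome X, 1308 bases apart. Col3a1 and Col5a2 lie tail to tail on chromosome 1 with 24614 bases between them. Col6a1 and Col6a2 run in the same direction on chromosome 10, separated by 85161 bases. RefSeq promoter sequences (GRCm38.p6) matched 22 of the 28 members that could be tested, in 24 windows. Within 250 bases before the start, searched on both strands, GGGCGG was present for 15 of the 22, TATAAA for 1 and CCAAT for 7. Among all 32851 windows the shares were 32.7%, 12.4% and 33.8%, counted per window and not per gene as for the members. The 120 bases before the starts of Col3a1 (chr1:45311418-45311537, plus strand) and Col5a1 (chr2:27886305-27886424, plus strand) show both kinds, an AT-rich stretch with TATAAA and a GC-rich stretch with GGGCGG, each in capitals.
Col3a1: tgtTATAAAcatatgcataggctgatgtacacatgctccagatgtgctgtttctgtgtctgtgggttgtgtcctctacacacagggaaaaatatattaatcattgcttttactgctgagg
Col5a1: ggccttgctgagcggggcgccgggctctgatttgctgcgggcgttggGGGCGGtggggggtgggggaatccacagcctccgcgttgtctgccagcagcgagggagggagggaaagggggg
A match describes these letters and is no site of binding.

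The libraries held 1538427 to 3053565 estimated counts, and control replicate 4 was the smallest. The limit that a count of 0 allows, 3 counts, is 0.984 to 1.92 CPM, counts per 1000000 counts of the scaled library. Cyp19a1 itself had 1 to 5.02 estimated counts per library in controls and 0 to 4 in knockouts, so its deletion could not be checked. The adipocyte marker Adipoq was at 2110 to 3814 CPM, and 6 of 8 epididymis markers were at 0 in all libraries. Of the others, Adam7 reached 8.53 CPM (22 counts) in knockout replicate 3 and 3.77 CPM in control replicate 2. Rnase10 had at most 4 counts in a library. The collagens took 0.449% ± 0.0684 of all counts in controls and 0.518% ± 0.0912 in knockouts (SD, n = 4). The control range of 0.381% to 0.540% and the knockout range of 0.409% to 0.632% overlapped. Of the collagen counts, fibrillar genes took 49.5% ± 4.34 in controls and 50.0% ± 3.76 in knockouts, and type IV genes 28.0% ± 4.51 and 28.3% ± 2.61 (SD, n = 4). Type VI took 13.9% ± 0.711 and 12.8% ± 1.13 (SD, n = 4). These are shares of counts, not of transcripts per length. In RNA from whole tissue, a lower share of a cell type and less RNA per cell cannot be told apart.

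No collagen gene passed an adjusted p of 0.05 between the genotypes in edgeR's quasi-likelihood test. Of the 44 members, 28 had enough counts to be tested and 0 passed, against 0.168% of the 12480 genes tested across the table. DESeq2 likewise passed 0 of the members. Col16a1 alone had an unadjusted p under 0.05, which is 3.57% of the members tested, where 6.39% of all genes tested had one and 3.52% had one with a higher value in knockouts. No member had 4 knockout libraries all above or all below the 4 control libraries, against 4.23% of all genes tested. In the knockout libraries 18 of the 28 had a higher fitted value and 10 a lower one, with a median log2 fold change (knockout minus control) of 0.12, and -0.0015 over all genes tested. The 95% interval of the fold change stayed inside a change of 2-fold in either direction for 19 of the 28 genes. It reached further for the other 9, so for these 9 the data leave room for a change of that size.

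**Figure D1:**
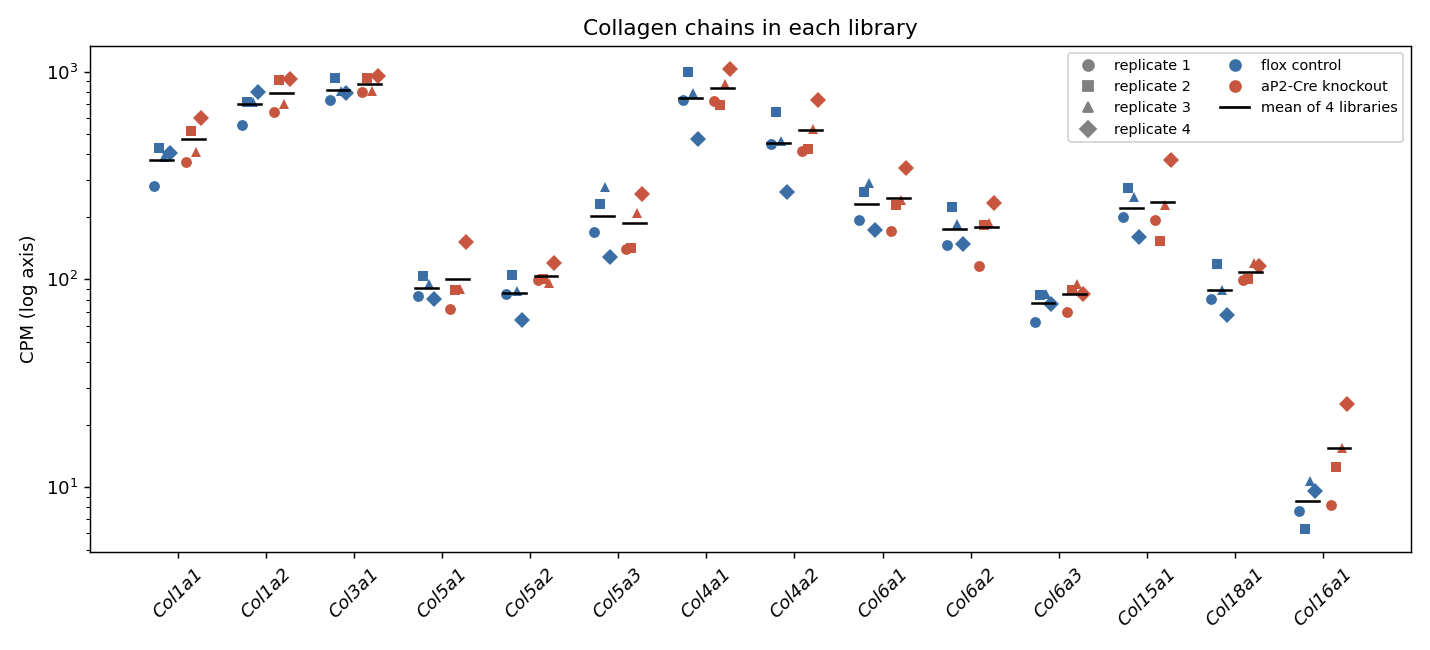
CPM on a log axis for 14 collagen genes in each library, with marker shapes for replicates 1 to 4, blue for flox control, red for aP2-Cre knockout and a bar for the mean of 4 libraries. The genotypes overlap in every gene shown, and knockout replicate 4 is the highest knockout library for most of them.

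The fibrillar chains of type I come first. Col1a1 (chromosome 11, 94936224 to 94953042) encodes the alpha 1 chain of type I collagen, the main fibre of most connective tissue. It was at 283, 427, 390.2 and 407 CPM over control replicates 1 to 4, and at 369, 517, 412 and 601 CPM over the corresponding knockouts. Knockout replicates 2 and 4 exceeded every control library, while knockout replicates 1 and 3 lay within the control range. The log2 fold change of Col1a1 was 0.34 (95% interval -0.02 to 0.69, edgeR adjusted p = 0.813), and it was 0.20 without knockout replicate 4 and 0.22 without control replicate 1. Its partner chain Col1a2 (chromosome 6, 4504814 to 4541544) was at 556, 713, 717 and 795 CPM in controls and 640.0, 914, 701 and 916 CPM in knockouts. Here again knockout replicates 2 and 4 were highest. The log2 fold change of Col1a2 was 0.19 (95% interval -0.13 to 0.51, edgeR adjusted p = 0.919).

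Col3a1 (chromosome 1, 45311538 to 45349706) encodes type III collagen, which forms thin fibres together with type I. Its values were 731, 929, 810.4 and 789 CPM in controls and 802, 936, 807 and 951 CPM in knockouts. The genotypes overlapped almost fully, and the log2 fold change of 0.10 had the narrowest interval of the tested members shown in full, from -0.15 to 0.35 (edgeR adjusted p = 0.942). A rise of Col3a1 above 1.28-fold or a fall below 0.901-fold lay outside that interval.

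Type V collagen sits inside type I fibrils and limits their width. Col5a1 (chromosome 2, 27886425 to 28039514) was at 83.7, 103, 95.1 and 80.1 CPM in controls and 72.3, 88.8, 89.6 and 152 CPM in knockouts. Knockout replicate 4 stood above the rest, and the log2 fold change of 0.16 (edgeR adjusted p = 0.947) became -0.12 without it. Col5a2 (chromosome 1, 45374321 to 45503282), the chain that joins Col5a1 in most type V molecules, was at 85.2, 105, 88.4 and 64.1 CPM against 98.9, 101, 95.8 and 120.03 CPM. Only control replicate 2 reached into the knockout range, and the log2 fold change was 0.27 (95% interval -0.04 to 0.58, edgeR adjusted p = 0.826). Without control replicate 4, where Col5a2 was lowest, it was 0.16. Col5a3 (chromosome 9, 20770050 to 20815067), a less widespread type V chain, was at 168, 231, 278 and 128 CPM in controls and 139.7, 142, 208 and 257 CPM in knockouts. Its libraries spread about evenly in both genotypes, with a log2 fold change of -0.11 (edgeR adjusted p = 0.982). The other tested fibrillar gene, Col27a1, lay between 5.07 and 19.9 CPM with a log2 fold change of -0.38 (edgeR adjusted p = 0.939), and -0.06 without control replicate 4.

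**Figure D2:**
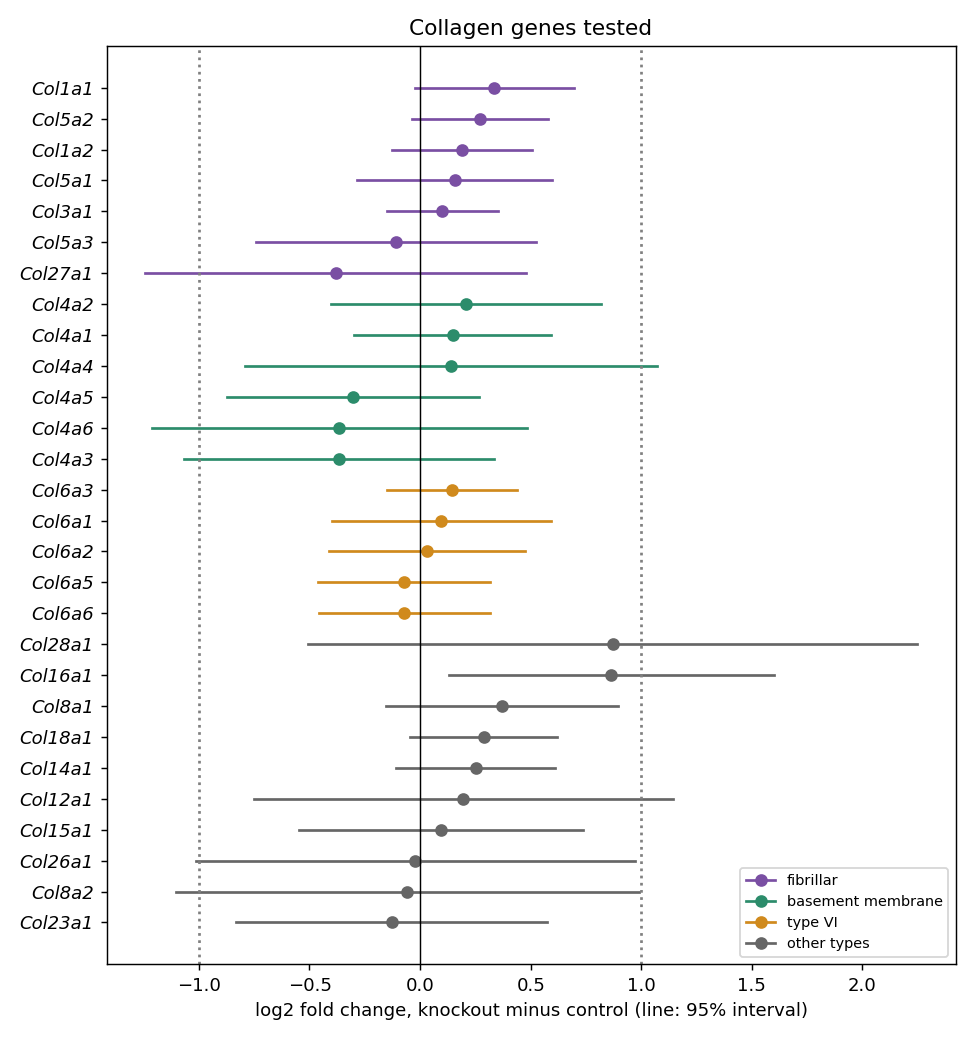
Log2 fold change, knockout minus control, of the 28 tested collagen genes, coloured by type, with lines for the 95% interval and dotted lines at a 2-fold change. All intervals include 0 except that of Col16a1, and those of Col28a1 and Col16a1 reach furthest to the right.

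Among the basement membrane genes, Col4a1 and Col4a2 encode the chains of the type IV molecule found in most basement membranes. Col4a1 (chromosome 8, 11198423 to 11312826) was at 733, 995, 789.8 and 474 CPM in controls and 723, 693, 872 and 1029.7 CPM in knockouts. Col4a2 (chromosome 8, 11312805 to 11449287) was at 450.4, 638, 463 and 264 CPM against 414, 425, 531 and 729 CPM. For both genes control replicate 4 was the lowest and knockout replicate 4 the highest of the 8 libraries, and the other 6 overlapped. The log2 fold changes were 0.15 for Col4a1 (edgeR adjusted p = 0.949) and 0.21 for Col4a2 (edgeR adjusted p = 0.949). Without control replicate 4 they were -0.02 and 0.02, and without knockout replicate 4 they were 0.03 and 0.01. Control replicate 4 also had the lowest summed level of the 10 endothelial markers, 598 CPM. The other control libraries had 930 to 1155 CPM and the knockout libraries 877 to 1108 CPM. The lowest of the knockouts was replicate 4, where both Col4a1 and Col4a2 were highest. Control replicate 4 was also the lowest control for the summed macrophage (639 CPM) and adipocyte markers (24541 CPM). It was the highest library for the summed mesothelial markers (388 CPM). The largest parts of that sum were the keratins Krt8 (160 CPM), Krt18 (80.8 CPM) and Krt19 (46.2 CPM), while Msln was at 5.13 CPM. None of the 10 endothelial markers was at 0 in every library, and 0 of the 10 passed in edgeR or had an unadjusted p under 0.05. The part of these marker lists in the type IV values was not tested.

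The remaining type IV chains, Col4a3 to Col4a6, are known from specialised basement membranes such as those of the kidney. Col4a3 lay between 7.33 and 26.9 CPM with a log2 fold change of -0.37 (edgeR adjusted p = 0.925), and -0.13 without knockout replicate 1. Col4a4 lay between 20.3 and 71.4 CPM, with its high values in control replicate 4 and knockout replicate 3, and had a log2 fold change of 0.14 (edgeR adjusted p = 0.982). The X-linked pair Col4a5 and Col4a6 had log2 fold changes of -0.30 and -0.36 (edgeR adjusted p = 0.924 and 0.941). Col4a5 was at -0.06 without control replicate 4, and Col4a6 at -0.01 without control replicate 2. Over the 6 type IV genes the median log2 fold change was -0.08, with 3 higher and 3 lower, and it was 0.05 without control replicate 2 and 0.04 without knockout replicate 1. The 4 minor chains did not share the library order of Col4a1 and Col4a2, in that none of them was lowest in control replicate 4.

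Type VI collagen, whose filaments surround adipocytes, was the type with the narrowest range of fold changes. Col6a1 (chromosome 10, 76708792 to 76726168) was at 194, 263, 291 and 174 CPM in controls and 172, 228, 240.5 and 345 CPM in knockouts. Both its lowest and its highest library were knockouts, and the log2 fold change was 0.10 (95% interval -0.40 to 0.59, edgeR adjusted p = 0.982). Col6a2 (chromosome 10, 76595762 to 76623630) was at 146, 223, 186 and 148 CPM against 116, 182, 187 and 233 CPM. The extremes were again knockout replicates 1 and 4, and the log2 fold change was 0.03 (95% interval -0.41 to 0.48, edgeR adjusted p = 0.992).

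Col6a3 (chromosome 1, 90765923 to 90843971) encodes the large type VI chain whose cleaved end is known as endotrophin. It was at 62.2, 84.1, 84.8 and 76.3 CPM in controls and 69.6, 89.2, 95.4 and 84.9 CPM in knockouts, a log2 fold change of 0.15 (95% interval -0.15 to 0.44, edgeR adjusted p = 0.934). A rise of Col6a3 above 1.36-fold lay outside the interval. Col6a5 and Col6a6, neighbours on chromosome 9 whose transcripts share 375 words of 31 bases, both had a log2 fold change of -0.07 (edgeR adjusted p = 0.982 each). Col6a5 lay between 86.5 and 164 CPM and Col6a6 between 22.9 and 35.0 CPM. The shared words are 3.98% and 4.10% of each gene's words, counted over whole transcripts. Whether they lie near the 3′ ends that were sequenced was not tested, so the share of reads that could be divided between these genes is not known. All 5 tested type VI genes had intervals inside 2-fold, and their median log2 fold change was 0.03, which became -0.11 without knockout replicate 4 and -0.05 without control replicate 1.

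Among the other types, Col15a1 and Col18a1 encode collagens attached to basement membranes. Col15a1 (chromosome 4, 47208161 to 47313167) was at 201, 276, 250.3 and 161 CPM in controls and 194, 152, 227 and 374 CPM in knockouts. Knockout replicate 4 stood above all others, and the log2 fold change of 0.09 (edgeR adjusted p = 0.983) became -0.22 without it. Col18a1 (chromosome 10, 77052178 to 77166548), the precursor of endostatin, was at 80.7, 119, 89.3 and 67.3 CPM against 99.8, 101, 119.9 and 115 CPM. The knockout libraries lay close together, and control replicate 2 reached into their range. The log2 fold change of Col18a1 was 0.29 (95% interval -0.04 to 0.62, edgeR adjusted p = 0.83), 0.18 without control replicate 4 and 0.46 without control replicate 2.

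Col16a1 (chromosome 4, 130047840 to 130099283), which encodes a collagen bound to fibrils and to cell adhesion sites, had the smallest p of the 28. It was at 7.69, 6.28, 10.8 and 9.62 CPM in controls and 8.24, 12.5, 15.5 and 25.3 CPM in knockouts, from 15 to 77 counts per library. Knockout replicates 2 to 4 exceeded every control library and knockout replicate 1 did not. The log2 fold change was 0.86 (standard error 0.343, 95% interval 0.13 to 1.60), with an unadjusted p of 0.0241 and an edgeR adjusted p of 0.689. Without knockout replicate 4 it was 0.51. Col14a1, another collagen that decorates fibrils, was at 24.2 to 29.3 CPM in the control libraries and at 24.7, 34.3, 34.9 and 34.4 CPM in knockout replicates 1 to 4, a log2 fold change of 0.25 (edgeR adjusted p = 0.91). Col8a1, a network-forming collagen of vessel walls, was at 8.97 to 16.1 and 14.7 to 18.8 CPM, a log2 fold change of 0.37 (edgeR adjusted p = 0.91).

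The other 5 tested members were sparse. Col28a1 had a fitted log2 fold change of 0.87 with an interval from -0.50 to 2.25, and it had 0 counts in control replicate 4. Col12a1, Col8a2, Col23a1 and Col26a1 had log2 fold changes of 0.20, -0.06, -0.13 and -0.02, with adjusted p-values in edgeR from 0.979 to 0.998. The 16 members that did not pass the low-count filter were Col2a1, Col6a4, Col7a1, Col9a1, Col9a2, Col9a3, Col10a1, Col11a1, Col11a2, Col13a1, Col17a1, Col19a1, Col20a1, Col22a1, Col24a1 and Col25a1. They include the cartilage collagens of types II, IX, X and XI and the skin collagens of types VII and XVII. In 8 of the 16 no library held more than 3 counts, and the highest total over all libraries was 77, for Col22a1. With low-count genes kept, edgeR fitted all 44 members, and 3 had an unadjusted p under 0.05, Col1a1, Col16a1 and Col18a1, where 5.64% of all genes fitted that way had one. None of the 16 sparse members did, with a lowest unadjusted p of 0.137 in edgeR.

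Levels of 8 pairs of chains were compared across the 8 libraries, 6 of chains of the same collagen type and 2 of a type I chain with type III. Col4a1 and Col4a2 had a Pearson r of 0.990 (exact permutation p = 7.44e-05, adjusted p = 0.000595) and a Spearman rho of 0.976 (exact permutation p = 0.000397, adjusted p = 0.00317) on log2 CPM. Without the 2 libraries farthest from the median of Col4a1, control replicate 4 and knockout replicate 4, r was 0.981 (exact permutation adjusted p = 0.0333). For Col1a1 and Col1a2 r was 0.945 (exact permutation p = 0.000868, adjusted p = 0.00231) and rho 0.81 (exact permutation p = 0.0218, adjusted p = 0.0436). Col6a1 and Col6a2 gave r = 0.896 (exact permutation p = 0.00347, adjusted p = 0.00694) and rho = 0.905 (exact permutation p = 0.00456, adjusted p = 0.0183). Without control replicate 1 and knockout replicate 4, r was 0.887 for the type I chains, and without knockout replicates 1 and 4 it was 0.83 for the type VI chains. Neither value then passed (exact permutation adjusted p = 0.0704 and 0.0861).

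Type III followed type I as well. Col1a1 with Col3a1 had r = 0.891 (exact permutation p = 0.000471, adjusted p = 0.00188) and rho = 0.881 (exact permutation p = 0.00724, adjusted p = 0.0193). Without control replicate 1 and knockout replicate 4, r was 0.789 (exact permutation adjusted p = 0.0704). Col1a2 with Col3a1 had r = 0.790 (exact permutation p = 0.0211, adjusted p = 0.0337) and rho = 0.738 (exact permutation p = 0.0458, adjusted p = 0.0733). The r of this pair was 0.512 without control replicate 1 and knockout replicate 4 (exact permutation adjusted p = 0.36). Leaving out the extreme libraries narrows the range, so this cannot show whether the relation rested on them. Col5a1 with Col5a2, Col6a1 with Col6a3 and Col6a2 with Col6a3 had r of 0.623, 0.61 and 0.701 and rho of 0.619, 0.571 and 0.667. None of these 3 passed (exact permutation p = 0.126, 0.108 and 0.0536, adjusted p = 0.126, 0.124 and 0.0714 for r, and p = 0.115, 0.151 and 0.0831, adjusted p = 0.131, 0.151 and 0.111 for rho). Without the 2 libraries farthest from the median, knockout replicates 1 and 4, r for these 3 pairs was 0.768, 0.587 and 0.700. After each genotype's mean was subtracted, r of the 8 pairs lay between 0.613 for Col6a1 with Col6a3 and 0.989 for Col4a1 with Col4a2, with no test. The libraries also share depth and cell composition, whose part in the correlations was not tested.

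**Figure D3:**
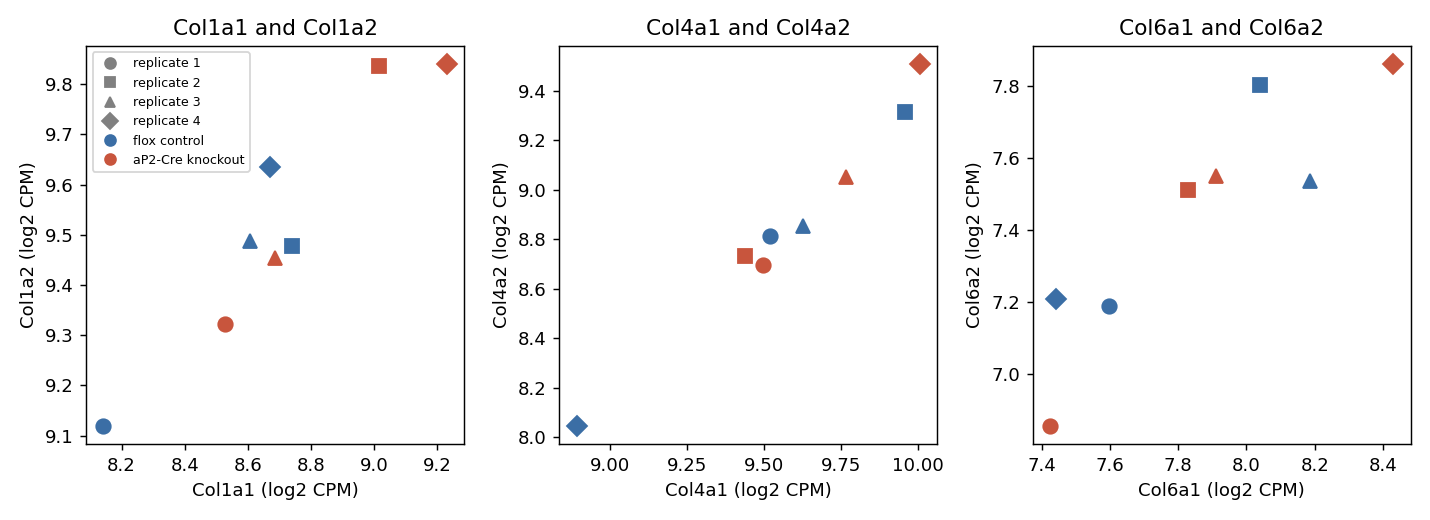
Log2 CPM of Col1a1 against Col1a2, Col4a1 against Col4a2 and Col6a1 against Col6a2 in each library, with marker shapes for replicates and colours for genotypes. In each panel control and knockout points lie along a common rising band, tightest for the type IV pair.

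The balance between chains can be read within a library, where depth cancels. The CPM ratio of Col4a1 to Col4a2 lay between 1.41 and 1.80 over all libraries, with 1.67 ± 0.101 in controls and 1.61 ± 0.139 in knockouts (SD, n = 4). The ratio of Col1a2 to Col1a1 was 1.97, 1.67, 1.84 and 1.95 over control replicates 1 to 4, against 1.73, 1.77, 1.70 and 1.53 for the knockouts. Control replicate 2 lay below 3 of the knockout libraries, so the genotypes overlapped, and no test was run. The ratio of Col6a1 to Col6a2 was 1.31 ± 0.185 and 1.37 ± 0.126 (SD, n = 4). The ratios are not divided by transcript length and are read only between libraries.

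Single libraries set much of the spread. Of the 28 tested collagens, 12 were highest in knockout replicate 4, or 42.9%, while 14.4% of all genes tested were highest there, and 0 were lowest there. Control replicate 1 and knockout replicate 1 each held the lowest value of 7 members and the highest of 0, where 10.8% and 12.7% of all genes tested were lowest. Control replicate 4 was highest for 7 members and lowest for 6, beside 19.8% and 18.3% of all genes tested. The median deviation of the 28 genes from their mean over the 8 libraries, on log2(CPM + 0.5), was 0.34 in knockout replicate 4, -0.26 in control replicate 1 and -0.22 in knockout replicate 1. In the other libraries it lay between -0.05 and 0.16. The 9 mesothelial markers, genes of the cells lining the depot's surface, had a median deviation of 0.81 in knockout replicate 4 and -0.47 in control replicate 1. They were at -0.06 in knockout replicate 1 and 0.33 in control replicate 4, where the collagens were at -0.22 and -0.05. By median deviation, fibroblast and stromal (0.25), mural (0.21) and macrophage markers (0.39) were also highest in knockout replicate 4. Endothelial (-0.01) and adipocyte markers (-0.06) were not. The summed fibroblast and stromal level was instead lowest in knockout replicate 4, at 4756 CPM, of which Gsn made up 3490 CPM. The summed level of the mesothelial markers was 232 CPM in knockout replicate 4, within the range of 129 to 388 CPM over all libraries, and 129 CPM in control replicate 1. None of them was at 0 in all libraries, and 0 passed in edgeR or had an unadjusted p under 0.05. The part of these marker lists in the collagen values was not tested. Without knockout replicate 4 the median log2 fold change of the 28 went from 0.12 to 0.02. Serpinh1, the chaperone that holds procollagen in the endoplasmic reticulum and was chosen here after its values were seen, was at 597 CPM in knockout replicate 4 and at 314 to 357 CPM in the other 7 libraries.

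**Figure D4:**
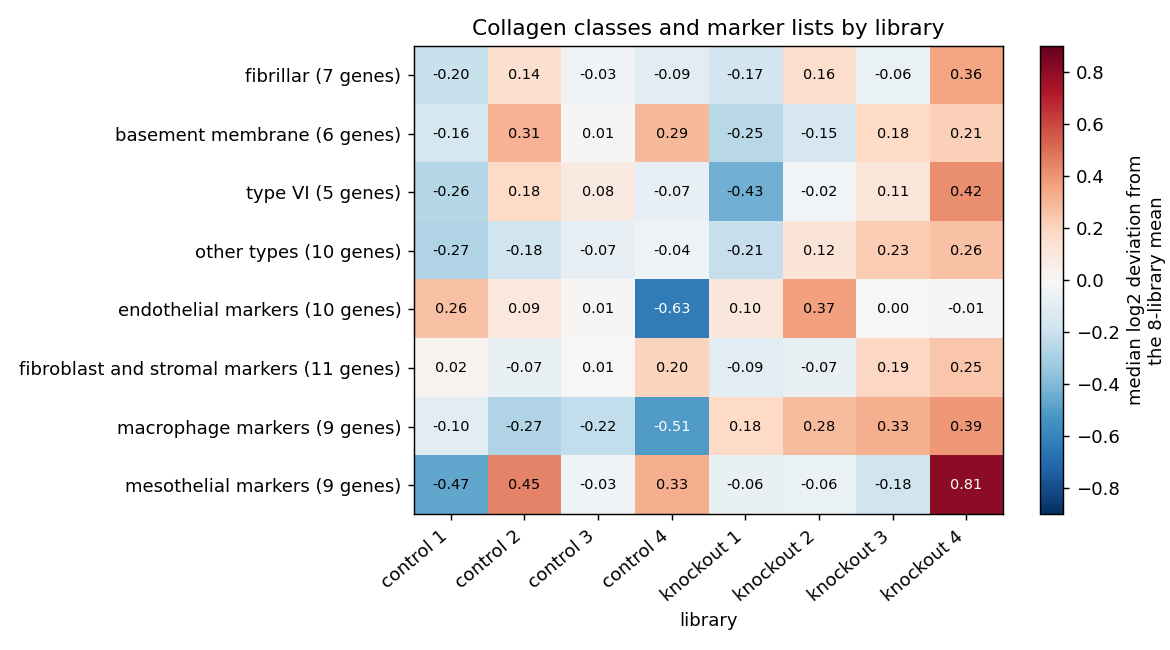
Median deviation from the mean over the 8 libraries, on log2(CPM + 0.5), for the collagen types and for 4 marker lists (rows), in each library (columns), with red above and blue below the mean. Type VI and fibrillar collagens are highest in knockout replicate 4, mesothelial markers are highest in knockout replicate 4, endothelial markers are lowest in control replicate 4, and macrophage markers are above 0 in the knockout and below 0 in the control libraries.

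Markers of cells that make collagen were measured beside these genes. Over all genes tested, 0.168% passed edgeR's test and 6.39% had an unadjusted p under 0.05. Of 11 fibroblast and stromal markers 0 passed, and 1 had an unadjusted p under 0.05, Clec3b, which was lower in knockouts (log2 fold change -0.41). The median log2 fold change of the 11 was 0.03. Their summed level was 6304 to 6703 CPM in controls and 4756 to 6384 CPM in knockouts, and none was at 0 in all libraries. Most of that sum was Gsn, the actin-binding protein gelsolin, at 5423 ± 264 CPM in controls and 4476 ± 796 CPM in knockouts (SD, n = 4), while 8 of the 11 markers had a higher fitted value in knockouts. Of 10 markers of mural cells, the pericytes and smooth muscle of vessels, 0 passed in edgeR and 2 had an unadjusted p under 0.05. Of these, Tagln was lower in knockouts and Notch3 higher (log2 fold changes -0.57 and 0.69). The summed mural levels were 587 to 694 CPM in controls and 572 to 753 CPM in knockouts. Of 10 macrophage markers 9 were tested and 2 passed with a higher value in knockouts, Cd68 and Lyz2. An unadjusted p under 0.05 was found for 7, all higher in knockouts. The summed macrophage level was 639 to 717 CPM in controls and 1051 to 1269 CPM in knockouts. Lyz2, which encodes lysozyme, rose by 0.85 on the log2 scale (edgeR adjusted p = 0.00776). The summed macrophage levels did not overlap between the genotypes, and those of fibroblast and stromal, endothelial and mural markers did. Their part in the collagen values was not tested.

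The genes that modify, export, cut, join and bind collagen gave the same count. Of 74 such genes, 58 were tested and 0 passed an adjusted p of 0.05 in edgeR, with 30 higher, 28 lower and a median log2 fold change of 0.02. At an unadjusted p under 0.05 there were 3, all with a higher value, where 6.39% of all genes tested had one. DESeq2 passed 0 of the 58. Pcolce2, an enhancer of the enzyme that trims procollagen ends, was at 23.8, 19.2, 16.1 and 16.7 CPM in controls and 36.6, 31.9, 22.1 and 48.5 CPM in knockouts. Knockout replicate 3 lay within the control range and the other 3 knockout libraries above it. Its log2 fold change was 0.86 (95% interval 0.36 to 1.36), with an unadjusted p of 0.00228 and an edgeR adjusted p of 0.328, and without a filter on low counts the edgeR adjusted p was 0.0392. Ctsk, a cathepsin that degrades collagen, was at 12.2 to 22.0 CPM in controls and 19.0 to 31.8 CPM in knockouts and had a log2 fold change of 0.51 (edgeR adjusted p = 0.742). Itgb1, the beta chain of the collagen-binding integrins, was at 194 to 273 CPM and 253 to 338 CPM, with one of 0.28 (edgeR adjusted p = 0.773).

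By role, the 17 tested genes of chain modification and folding had a median of -0.0025 on the log2 fold change scale, with 8 higher, and their summed level lay between 1218 and 1607 CPM. The 4 tested crosslinking genes, Lox and Loxl1 to Loxl3, had a median of -0.03. The 7 fibril-binding proteoglycans, decorin among them, had a median of 0.02, and the 5 secretion genes -0.04. All 6 tested collagen receptors had a higher fitted value (median 0.24). The growth factor list also holds receptors and binding proteins: Tgfb1 to Tgfb3, Tgfbr1, Tgfbr2, Ccn2, Ltbp1 and Ltbp2. Of these 8 genes, 7 had a lower fitted value (median -0.12) and Tgfb3 a higher one. In each of the 2 lists 0 passed, and 49.7% of all genes tested had a higher fitted value. The collagen-cleaving enzymes and their inhibitors had a median of 0.13 over 7 tested genes. Itga2, the integrin alpha 2 chain, was too low to be tested, at 1.28 to 2.80 CPM in controls and 2.95 to 4.44 CPM in knockouts, with at most 11 counts in a library.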

How the data were processed

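BRB-seq, a 3′-end method, was applied to total RNA, per the labels' protocols. The authors' deposited table holds estimated counts per gene, neither whole nor normalized: 59.6% of values above 0 were whole (within 1e-09). Salmon and GRCm38 are named in the submitters' processing notes, and the use of molecular identifiers and of strand is not given in the sources used here. Identifiers were matched without version to GENCODE M21 (34652 of 34866), which gave symbols and coordinates. Counts were rounded and tested on the whole table in edgeR 4.0.16 (R 4.3.3) with TMM factors, filterByExpr, a robust quasi-likelihood F test, genotype as the only term and Benjamini-Hochberg adjustment over 12480 genes. CPM used TMM-scaled library sizes. The fit was tested on simulated data. Intervals are 95% and unadjusted; the floor of 3 counts covers counting error only. Replicates of a genotype differed by a chi-square of 4.48 to 9.40 per degree of freedom, so no library looked deposited in duplicate.

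Collagens given in every library are those with an unadjusted p under 0.05, those without overlap between genotypes, and 13 main chains; pathway genes meeting either of the first conditions are named. The members and lists were chosen with earlier results of these data known. Alternatives were DESeq2 1.42.0, other size factors (upper-quartile, RLE), keeping low-count genes, a replicate block, downsampling and leaving out each library. Exact permutation tests are two-sided. Schwann, mesothelial, adipocyte and epididymis marker lists were also examined, and 0 of their genes passed; none of the epididymis markers had enough counts to be tested. Of 10 adipocyte markers 7 had a lower fitted value in knockouts and 3 a higher one. Among them Retn was at 2037 to 2754 CPM in controls and 1367 to 1714 CPM in knockouts, without overlap (edgeR adjusted p = 0.0731). Over all genes tested 4.23% had no overlap. Reads of overlapping genes on opposite strands cannot be told apart without strand.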

Additional observations from a re-analysis of the deposited data

Results flagged for a closer look

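Dixon's rule for 4 values (95% critical value) was applied to the controls and to the knockouts of each tested collagen and of a summed share. It marked 3 of the 58 sets, and about 2.9 would be marked by chance. Knockout replicate 3 had 71.4 CPM of Col4a4, where the other knockouts had 31.6 to 38.0 CPM. Knockout replicate 1 had 24.7 CPM of Col14a1, where the other knockouts had 34.3 to 34.9 CPM. Control replicate 4 had 12.7 CPM of Col26a1, where the other controls had 4.26 to 4.81 CPM.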

How the results depend on the processing

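No collagen gene passed under any of the 15 alternatives run, and the lowest adjusted p over them was 0.574. Over all genes, 21 passed in edgeR (15 higher, 6 lower), 21 with RLE or upper-quartile factors, 58 with low-count genes kept, 54 in DESeq2 and 13 after downsampling to equal depth. Leaving out libraries gave 4 (without control replicate 2) to 44, the latter without control replicate 4 and knockout replicate 4, an alternative chosen after seeing the data, and 43 without control replicate 4 alone. With low-count genes kept, 1 collagen pathway gene passed, Pcolce2. The cause of these shifts was not tested.

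Replicate numbers are shared by the genotypes, and the labels do not say what they stand for. Deviations of same-numbered libraries over all genes tested had correlations of 0.25, -0.06, -0.01 and -0.24. For replicate 1, at 0.25, the median collagen deviation was low in both genotypes (-0.26 in control, -0.22 in knockout). These 4 values cannot show whether same-numbered libraries share a batch. With the replicate block 6 genes passed, 4 higher and 2 lower, and 0 collagens.

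All 28 fold changes kept their sign under the other factors, the block, DESeq2 and the kept low-count genes, as did the 25 fitted after downsampling. When libraries were left out, 14 kept their sign and 14 did not. The log2 fold changes of those 14 ranged from -0.037 to 0.41 for Col12a1, -0.34 to 0.26 for Col15a1, -0.29 to 0.064 for Col23a1, -0.39 to 0.46 for Col26a1, -0.14 to 0.32 for Col4a1, -0.18 to 0.42 for Col4a2 and -0.19 to 0.58 for Col4a4. They ranged from -0.17 to 0.28 for Col5a1, -0.46 to 0.089 for Col5a3, -0.22 to 0.23 for Col6a1, -0.19 to 0.19 for Col6a2, -0.26 to 0.059 for Col6a5, -0.16 to 0.017 for Col6a6 and -0.37 to 0.59 for Col8a2. Of the other 14, the widest ranges were those of Col28a1 (0.49 to 1.24), Col4a6 (-0.74 to -0.01), Col27a1 (-0.60 to -0.01), Col16a1 (0.51 to 1.07), Col4a5 (-0.50 to -0.06) and Col4a3 (-0.64 to -0.13). With single libraries left out, the median of all 28 ranged from 0.02 to 0.20, of fibrillar genes from 0.06 to 0.28, of type IV from -0.26 to 0.05, of type VI from -0.11 to 0.19, and of the other types from 0.14 to 0.40, the highest without control replicate 4. Without the 2 libraries farthest from the median, r fell short of the threshold for Col1a1 with Col1a2 (0.887), Col1a1 with Col3a1 (0.789), Col1a2 with Col3a1 (0.512) and Col6a1 with Col6a2 (0.830), in a smaller set of 6 libraries. Depth limits the 16 members that were not tested and the sparse ones such as Col28a1.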
